A study of Mus musculus with 8 samples.

Results

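Single-cell RNA of myeloid cells from the mouse sciatic nerve was compared between 2 forms of nerve trauma, each sampled 15 weeks after surgery. In partial sciatic nerve ligation (PSNL), part of the nerve was tied off with a tight suture, and the injury does not resolve. In crush, the nerve was squeezed with forceps, and it regenerates. The comparison held 7 of the 13 hashtag samples of the series: 4 after PSNL (females F1 and F2, males M1 and M2) and 3 after crush (females F1 and F2, male M1). All were C57BL/6JolaHsd mice of the same batch, perfused before nerves were taken, and cells were sorted as CD45+/CD11b+. Neutrophils were not excluded by Ly6G at this time point, and no sham nerve was analysed here at 15 weeks. A hashtag is a barcoded antibody against MHC class I that labels the cells of 1 sample before samples are pooled, and each injury made up 1 library, so that injury and library cannot be told apart. The sources used here do not say if the cells under 1 hashtag came from a single mouse or from a pool. P-values therefore measure only the spread between these samples.

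Macrophages live in every peripheral nerve. Those of the epineurium, around the nerve, carry scavenger receptors such as Cd163 and the hyaluronan receptor Lyve1, whereas those of the endoneurium, among the axons, share genes such as Cx3cr1 with microglia. After injury, monocytes enter from the blood, and macrophages clear myelin debris, which loads them with lipid, and then present antigen, secrete growth factors or leave. Whether a nerve that regenerates and a nerve whose injury does not resolve still differ in their macrophages long after the lesion is the question this comparison addresses.

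Cells were kept if they had at least 500 genes, under 10% mitochondrial counts and exactly 1 hashtag above its threshold, which left 4039 of 4742 cell barcodes. PSNL samples held 288, 484, 521 and 362 cells, and crush samples 488, 341 and 1555 (throughout, values are in the order F1, F2, M1, M2 for PSNL and F1, F2, M1 for crush). Totals ran from 2350012 UMI (unique molecular identifiers, the counted RNA molecules) in crush F2 to 15363322 in crush M1, with medians of 6358 to 9344 UMI per cell and of 2.47 to 3.59% mitochondrial counts. Xist, transcribed from the inactive X, was at 853 to 978 CPM (counts scaled to a common library total) in the 4 female samples and at most 0.704 CPM in the 3 male samples, and the Y-linked Ddx3y was at 65.3 to 95.6 CPM in males and at most 0.527 CPM in females. The 8 general macrophage markers, which include Ptprc (CD45) and Itgam (CD11b), summed to 6061 to 6905 CPM after PSNL and 5419 to 7064 CPM after crush. The sums of 4 Schwann cell markers (198 to 285 against 219 to 322 CPM), 6 neutrophil markers (78.5 to 135 against 106 to 371 CPM) and 7 T and NK cell markers (7.26 to 24.9 against 6.12 to 14 CPM) overlapped between injuries. Prg2 and Epx of eosinophils and all 3 haemoglobin genes looked for had no UMI; whether haemoglobin genes were removed before deposit is not given in the sources used here. Crush M1 stood apart from the rest: on the first principal component of the summed profiles (38.6% of variance) it was at 49.3, beyond the PSNL samples (-27.0 to 22.2) and the other crush samples (-9.11 and -13.4). Results are therefore also given without it. Only 2 cell barcodes occurred in both libraries.

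A gate on 3 or more UMI of Cd163, Lyve1 and Cbr2 together took 549 cells as resident-gated and left 3490 remaining cells. The remaining cells are those below the gate. They still include cells with other resident macrophage genes such as Mrc1, so the 2 sets are not resident against non-resident cells. The gate took 23.3, 17.1, 11.1 and 15.7% of cells after PSNL and 24.8, 19.6 and 6.17% after crush. The means were 16.8% ± 5.00 (SD, n = 4) and 16.9% ± 9.62 (SD, n = 3), a difference of -0.05 percentage points (exact two-sided permutation test, p = 1.0, where 35 splits allow no p below 0.0571). Crush M1 had the lowest share, with an exact 95% binomial interval of 5.03 to 7.49%, and crush F1 the highest, with an interval of 21.0 to 28.9%. These intervals cover counting error only. Without crush M1, the crush mean was 22.2% and the difference -5.40 points (exact permutation test, p = 0.267).

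**Figure D1:**
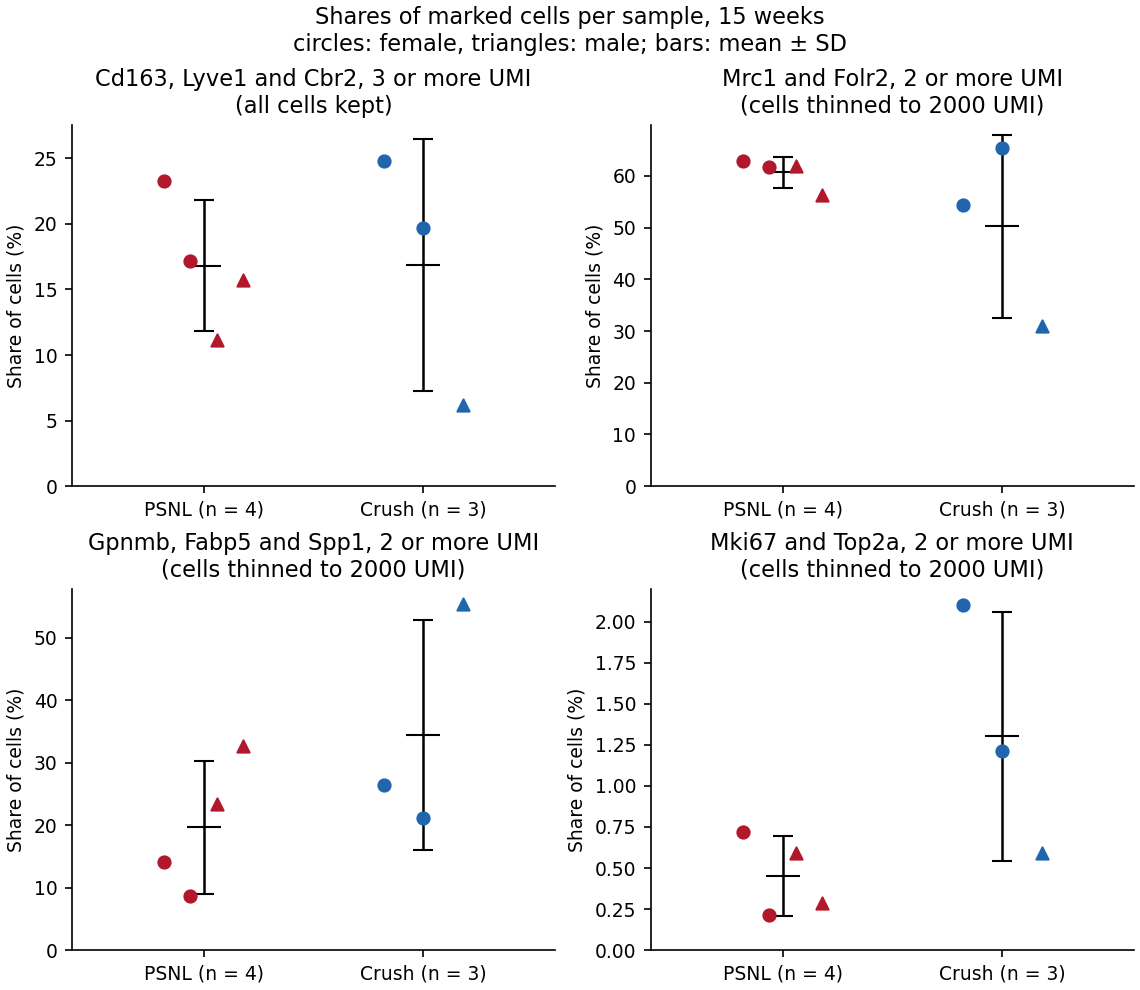
Share of cells (percent, y axis) in each hashtag sample after PSNL and after crush, for the resident gate and, after thinning cells to 2000 UMI, for 3 other marker sets. Circles are female and triangles male samples, and bars are the mean ± SD. Crush M1 has the lowest resident-gated share (6.17%) and the highest share of cells with Gpnmb, Fabp5 and Spp1 (55.4%).

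Shares of cells by marker set were compared after each cell was thinned to 2000 UMI (3922 cells, a cell counting at 2 or more UMI of a set). Over the 11 sets, unadjusted p ran from 0.114 upwards and adjusted p was 0.864 or more (exact permutation tests). The 35 splits allow no p below 0.0571, so no set could have been called, whatever its shares. The lack of a call therefore does not show that the shares were alike. No set reached that smallest p either. Cells with Mrc1 (the mannose receptor CD206) and Folr2 (a folate receptor) made up 62.9, 61.7, 61.9 and 56.3% after PSNL and 54.4, 65.5 and 30.9% after crush. The PSNL samples were close to each other, at 60.7% ± 3.01 (SD, n = 4), whereas the crush samples lay on both sides of them, at 50.3% ± 17.7 (SD, n = 3). Cells with the microglia-like genes Cx3cr1 and Tmem119 made up 45.3, 34.4, 37.5 and 35.8% against 26.3, 40.6 and 34.7%. Cells with the lipid-handling genes Gpnmb, Fabp5 and Spp1 made up 14, 8.6, 23.3 and 32.7% against 26.5, 21.2 and 55.4% (exact permutation test, p = 0.286), and the 2 highest of the 7 samples were males. Of the 338 cells with the Cd163, Lyve1 and Cbr2 set, 9 (2.66%) also had the Gpnmb, Fabp5 and Spp1 set. Of the 1916 cells with Mrc1 and Folr2, 311 (16.2%) also had the Cd163, Lyve1 and Cbr2 set. Unthinned, the Gpnmb, Fabp5 and Spp1 shares were 31.8% ± 12.7 (SD, n = 4) and 49.5% ± 18.9 (SD, n = 3).

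Proliferating cells, those with 2 or more UMI of Mki67 and Top2a, were rare at 15 weeks: 30 cells in all. They made up 0.719, 0.215, 0.593 and 0.284% of cells after PSNL and 2.10, 1.21 and 0.594% after crush, a difference of -0.85 points (exact permutation test, p = 0.114). With cells thinned to 1000 UMI the difference was -0.26 points (exact permutation test, p = 0.4) from 15 cells. Without thinning, 84 cells counted, at 1.74, 2.48, 1.54 and 2.21% after PSNL and 4.30, 2.93 and 1.29% after crush. The injuries then overlapped, with crush M1 the lowest sample (exact permutation test, p = 0.343). Cells with the monocyte genes Ly6c2 and Plac8 numbered 22, with the neutrophil genes S100a8 and S100a9 8, with the lymphocyte genes Cd3e and Nkg7 9, and with the migratory dendritic cell genes Ccr7 and Fscn1 7. Without thinning, cells with S100a8 and S100a9 made up 0.347, 0.207, 0.576 and 0.552% after PSNL and 1.23, 0.587 and 2.25% after crush, without overlap (exact permutation test, p = 0.0571, the smallest that 35 splits allow), against p = 0.514 with cells thinned.

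Counts were then summed over the cells of each sample and compared between injuries with the quasi-likelihood test of edgeR, in which log2 differences are PSNL minus crush and levels are TMM-normalized CPM. In such sums, fewer cells of a type and less RNA per cell cannot be told apart. No gene of 11187 passed an adjusted p of 0.05 (0%); 577 genes had an unadjusted p under 0.05, of which 261 were higher after PSNL (2.33% of those tested) and 316 lower (2.82%). The smallest adjusted p was 0.452. In 315 genes (2.82%) all 4 PSNL samples were above all 3 crush samples, and in 349 (3.12%) all were below. DESeq2 called 9 of the 11172 genes to which it gave an adjusted p (0.0806%). For 8918 genes (79.7%) the whole 95% interval of the difference lay within a factor of 2 of no difference, in either direction. The median gene had an interval of ± 0.42 on the log2 scale.

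**Figure D2:**
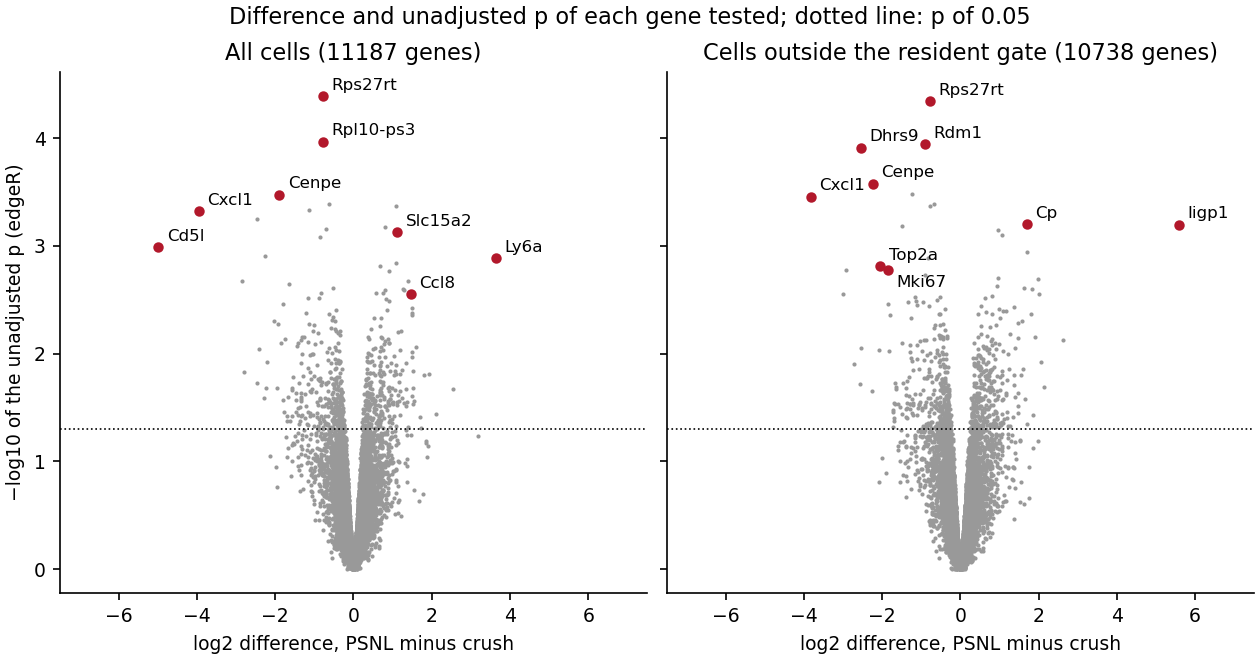
Log2 difference (PSNL minus crush, x axis) against -log10 of the unadjusted p of edgeR (y axis) for every gene tested, in all cells and in the cells outside the resident gate. Each point is a gene, the genes named in red are described in the text, and the dotted line marks an unadjusted p of 0.05. No gene passed an adjusted p of 0.05 in either panel, and Rps27rt has the smallest p in both.

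The gene with the smallest p was Rps27rt, a retrocopy of the ribosomal protein gene Rps27. It was at 52.8, 56.9, 50.0 and 49.6 CPM after PSNL and 85.1, 89.1 and 96.2 CPM after crush. The groups did not overlap and each was tight (log2 difference -0.79, SE 0.105, unadjusted p = 4.04e-05, edgeR adjusted p = 0.452), and DESeq2 called it (adjusted p = 0.00088). The difference was alike in resident-gated (-0.73) and remaining cells (-0.78). Its parent Rps27 was at 2149 to 2471 CPM after PSNL and 2323 to 2722 CPM after crush, a log2 difference of -0.13 (95% interval -0.36 to 0.10). Rpl10-ps3 (25.1 to 28.8 against 40.9 to 48.0 CPM, log2 difference -0.77) and Rpl9-ps6 (16.8 to 27.4 against 34.6 to 41.4 CPM, -0.85) were lower in the same way, while their parents Rpl10 and Rpl9 differed by -0.22 and -0.18. All 3 tested genes with a ribosomal pseudogene symbol were lower after PSNL without overlap, beside 3.12% of all genes.

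These copies share all or nearly all of their coding sequence with their parents, so their values may be uncertain. Sequence outside the coding part was not compared. In GENCODE M21 (GRCm38), Rps27rt lies at chr9:114982366-114982739 and Rps27 at chr3:90212522-90213651, and their coding sequences are identical over all 252 bases. Rpl10-ps3 and Rpl10 are identical over 642 bases, and Rpl9-ps6 and Rpl9 at 575 of 576. Where the coding bases are identical, a read from them cannot be given to 1 of the 2 genes by sequence. How many of the counted UMI came from such bases was not tested. The shared coding sequence of Rps27rt and Rps27 is printed because it shows what a read would have to be told apart by, and it has no capitals because no base differs.
Rps27rt and Rps27: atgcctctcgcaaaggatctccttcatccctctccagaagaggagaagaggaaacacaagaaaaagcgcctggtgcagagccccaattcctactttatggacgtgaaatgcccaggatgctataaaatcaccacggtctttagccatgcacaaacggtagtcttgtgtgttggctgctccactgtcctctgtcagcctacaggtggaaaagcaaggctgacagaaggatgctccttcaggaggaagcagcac
Whether reads were shared out differently in the 2 libraries was not tested.

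After Rps27rt and its like, the genes lower after PSNL with the smallest p were Cenpe and Slc9a4. Cenpe, a kinesin that moves chromosomes to the metaphase plate, was at 2.84, 2.90, 2.82 and 2.68 CPM after PSNL and 14.7, 11.4 and 6.25 CPM after crush (log2 difference -1.90, SE 0.336, unadjusted p = 0.000333, edgeR adjusted p = 0.759). The 4 PSNL samples were close to each other and below all crush samples. Their counts were small, at 3, 9, 8 and 6 UMI in remaining and 4, 2, 4 and 2 in gated cells. In crush F2, 3 remaining cells held 23 Cenpe UMI, 14 of them in 1 cell. In crush F1 and M1, 21 and 43 remaining cells held 49 and 86. Slc9a4, a sodium-proton exchanger, was at 5.36 to 7.38 against 12.1 to 17.6 CPM (-1.13). Among the higher genes, 2900060B14Rik (1.08) and the histone gene Hist2h2aa1 (0.81) had the smallest p. Slc15a2, a proton-coupled transporter of dipeptides, was at 49.6, 43.2, 67.4 and 36.9 CPM after PSNL and 19.5, 20.7 and 27.0 CPM after crush (log2 difference 1.12, SE 0.223, unadjusted p = 0.000747). Its lowest PSNL sample was above its highest crush sample, and its UMI came from many cells: 42, 66, 125 and 44 of the remaining cells after PSNL carried it, and 15, 5 and 148 after crush. Nod2, a cytosolic receptor for bacterial muramyl dipeptide, which is a product of peptidoglycan, was at 8.12, 12.4, 11.5 and 9.05 against 5.71, 4.64 and 4.46 CPM (1.07), likewise without overlap. Ly6a (Sca-1) was at 10.6, 6.59, 1.41 and 4.36 against 0.476, 0 and 0.503 CPM (3.65); in PSNL F1, the highest sample, 8 gated and 4 remaining cells carried it. Elsewhere Ly6a rested on single cells: 1 cell held all 12 gated UMI of PSNL F2, 1 all 5 remaining UMI of PSNL M1 and 1 cell 12 of the 13 of PSNL M2.

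**Figure D3:**
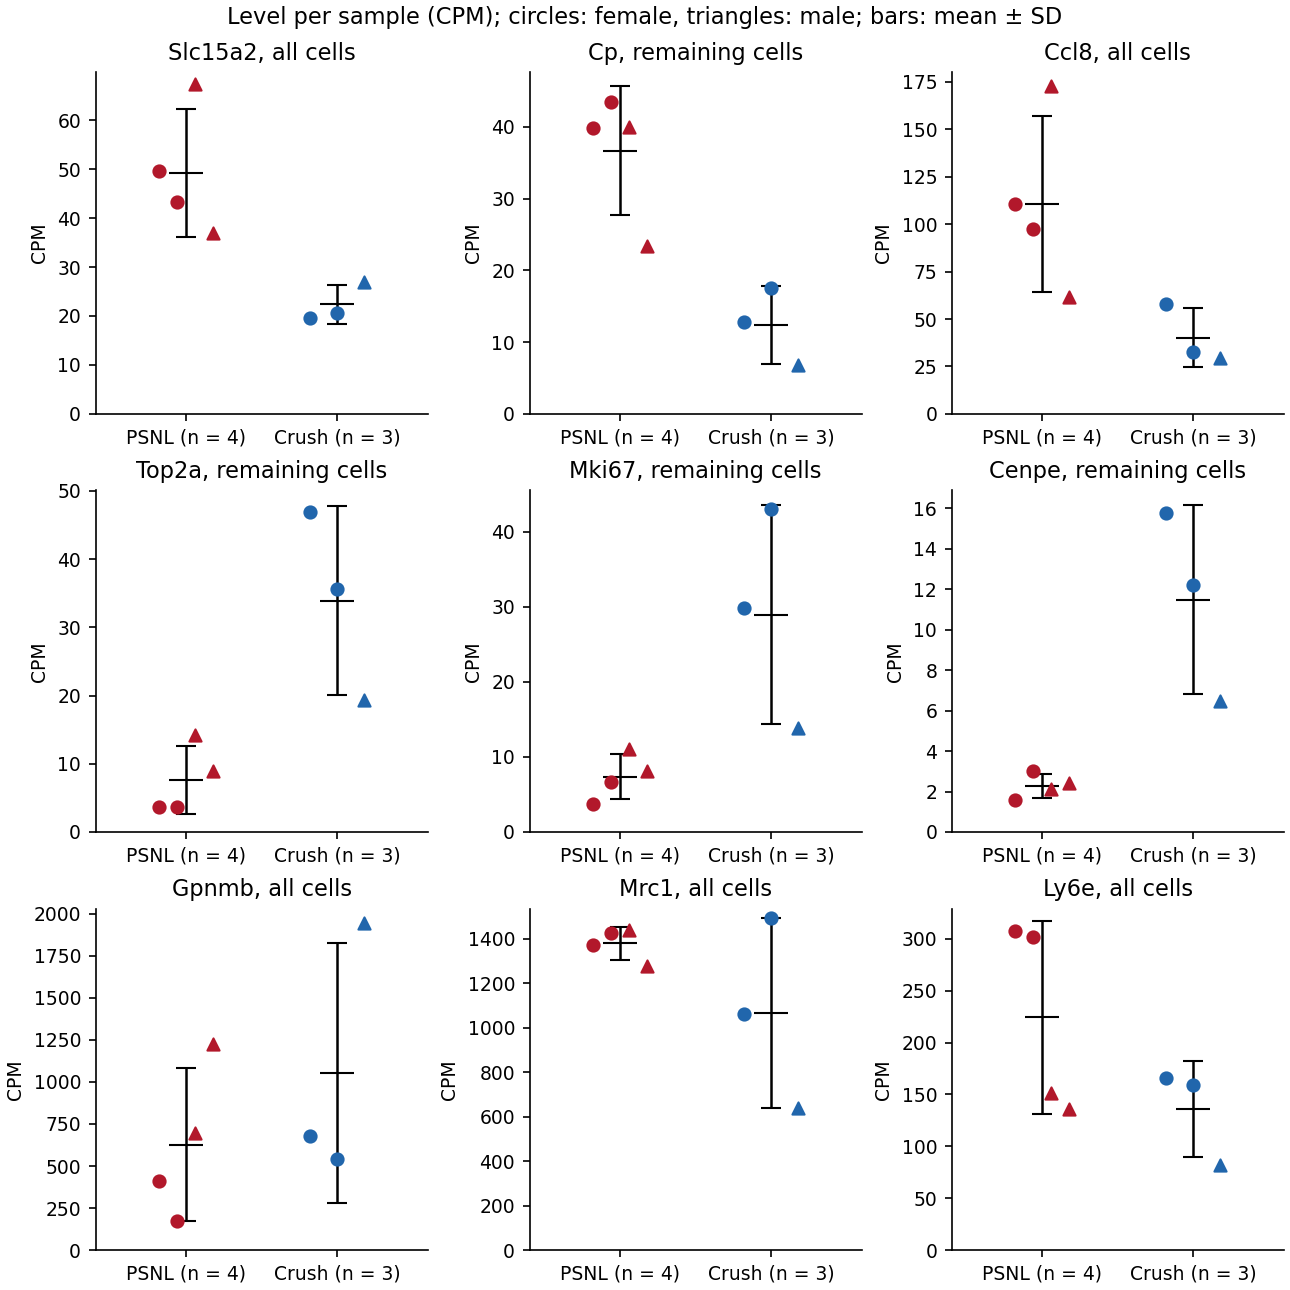
Level (CPM, linear y axis from 0) of single genes in each hashtag sample after PSNL and after crush, in all or in remaining cells as each panel states. Circles are female and triangles male samples, and bars are the mean ± SD. The PSNL and crush points do not overlap for Slc15a2, Cp, Ccl8, Top2a, Mki67 and Cenpe and overlap for Gpnmb, Mrc1 and Ly6e; no gene passed an adjusted p of 0.05.

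Of the 9 genes called by DESeq2, 3 were higher after PSNL (Ccl8, Ly6a and Slc15a2) and 6 lower (Cd5l, Cenpe, Dhrs9, Rpl10-ps3, Rps27rt and Ube2c). Ccl8, a chemokine ligand, was at 111, 97.5, 173 and 61.6 CPM after PSNL and 58.0, 32.5 and 29.7 CPM after crush (log2 difference 1.47, SE 0.361). Single gated cells held 85 of the 236 gated Ccl8 UMI of PSNL F1, 116 of the 381 of PSNL M1 and 80 of the 327 of crush M1. Cd5l, a secreted protein of tissue macrophages that inhibits their apoptosis, was at 0.812, 1.32, 0.939 and 1.34 CPM after PSNL and at 3.09, 19 and 80.4 CPM after crush (-4.99, 95% interval -7.35 to -2.63). The PSNL level was near that of single molecules, 4 or fewer UMI among the remaining cells of each sample. The crush samples were all above the PSNL samples and differed widely among themselves, and in crush M1 128 of 1459 remaining cells held 1117 UMI. Without crush M1 the Cd5l difference was -3.19. Dhrs9, a short-chain dehydrogenase of retinoid and steroid metabolism, was at 0.812, 3.43, 2.35 and 2.68 against 17.8, 5.07 and 16 CPM (-2.47). Cxcl1, a neutrophil attractant, was at 0.812, 0, 3.75 and 0 against 22.4, 12.2 and 24.8 CPM (-3.95, unadjusted p = 0.000476), but in crush F2 1 cell held 27 of the 29 UMI of the remaining cells.

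Of the 19 cell cycle genes fixed as a list, 16 were tested in all cells, and 15 of these were below 0. Their median log2 difference was -0.78, beside -0.01 over all genes tested; 8 had an unadjusted p under 0.05 and were lower, none was higher (beside 2.82 and 2.33% of all genes), and no member passed the adjusted threshold. Without crush M1, all 16 were below 0 and the median was -1.03. Ube2c, the E2 enzyme of the anaphase-promoting complex, was at 3.66, 4.48, 1.64 and 0 CPM after PSNL and 27.1, 18.6 and 8.48 CPM after crush (log2 difference -2.84, SE 0.662). Single cells held much of it: 36 of the 44 gated and 38 of the 70 remaining UMI of crush F1, and 31 of the 41 remaining UMI of crush F2. Mki67, which coats mitotic chromosomes, was at 17.1, 7.64, 11.7 and 7.71 against 34.2, 42.2 and 13.7 CPM (-1.41), Stmn1 at 24.0, 23.2, 41.1 and 25.5 against 91.3, 52.3 and 36.2 CPM (-1.05), and Top2a, the topoisomerase that untangles replicated DNA, at 23.6, 4.48, 15.3 and 11.7 against 51.8, 37.1 and 18.6 CPM (-1.39). Ube2c did not overlap between the injuries, whereas Mki67, Top2a and Stmn1, a microtubule regulator, did, with crush M1 the lowest crush sample of each. The 2 crush females had the highest levels of Ube2c, Mki67, Stmn1 and Top2a.

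In the remaining cells the same list had a median of -0.87, with 15 of 16 members below 0 and 8 lower at an unadjusted p under 0.05, of which 4 did not overlap. Over all genes of the remaining cells 3.13% were lower at an unadjusted p under 0.05, and in 3.25% all PSNL samples were below all crush samples (above in 2.96%). Top2a was at 3.71, 3.68, 14.2 and 8.89 CPM after PSNL and 46.9, 35.6 and 19.3 CPM after crush (log2 difference -2.05, SE 0.46, edgeR adjusted p = 0.775). The groups did not overlap, and DESeq2 called Top2a (adjusted p = 0.0122). In the 2 PSNL and 2 crush females alone, edgeR called Top2a lower (log2 difference -3.48, SE 0.291, adjusted p = 0.011); over all alternatives its adjusted p was at least this large. The UMI came from few cells: 4, 5, 10 and 7 remaining cells after PSNL held 7, 11, 53 and 22 UMI, and 20, 7 and 32 cells after crush held 146, 67 and 256. For Mki67, 7 remaining cells of crush F2 held 81 UMI, 61 of them in 1 cell, and 25 of crush M1 held 184. Among resident-gated cells 8 members were tested, the median was -0.26 and none had an unadjusted p under 0.05. Top2a came from few gated cells: 4 in PSNL F1 held 51 UMI, 46 of them in 1 cell.

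Many genes of mitosis are held off outside G2 and M phase by a repressor complex at a cell cycle homology region and switched on through CCAAT boxes, which bind NF-Y. The promoters of the cell cycle list (250 bases upstream of the RefSeq start, GRCm38.p6) were searched on both strands for the letters CCAAT, which read ATTGG on the opposite strand, and for TTTGAA, which reads TTCAAA there. A CCAAT box was found for 15 of 17 matched genes of the list and in 33.8% of 32851 promoters of all genes, and TTTGAA for 7 of 17 and in 16%. A list gene counted if any of its promoters matched, whereas the shares over all count each promoter, so the 2 are not on the same unit. The promoters of Top2a (chr11:99024190-99024439, minus strand) and Ube2c (chr2:164769679-164769928, plus strand) are shown as those of a gene that DESeq2 called in the remaining cells and of one it called in both sets; capitals mark these 2 motifs on either strand.
Top2a: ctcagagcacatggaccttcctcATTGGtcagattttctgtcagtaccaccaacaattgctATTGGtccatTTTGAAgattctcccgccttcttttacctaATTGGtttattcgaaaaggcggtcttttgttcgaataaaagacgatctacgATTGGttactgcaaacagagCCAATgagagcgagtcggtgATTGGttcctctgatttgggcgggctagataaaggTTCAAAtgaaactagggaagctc
Ube2c: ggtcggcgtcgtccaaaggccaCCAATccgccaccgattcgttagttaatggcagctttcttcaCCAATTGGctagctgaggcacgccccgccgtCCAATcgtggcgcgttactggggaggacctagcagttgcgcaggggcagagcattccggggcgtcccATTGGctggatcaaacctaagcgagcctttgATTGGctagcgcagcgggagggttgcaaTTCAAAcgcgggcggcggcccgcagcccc
Each held 6 CCAAT matches, of which 2 in Ube2c overlap as CCAATTGG, and Top2a held 2 and Ube2c 1 of TTTGAA. A match is a description of the letters and not of a bound site.

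Genes of lipid-laden macrophages, those that take up debris and store or export its lipid, were lower after PSNL on median. This depended on whether crush M1, the only crush male, was included. Of 21 genes tested, 20 were below 0 and the median log2 difference was -0.69, yet only Itgax (CD11c) had an unadjusted p under 0.05. Without crush M1 the median was 0.02 with 9 genes below 0. That fit sets PSNL samples of both sexes against crush females only, so sex enters it. With sex as a term and all samples kept, the median was -0.76. Itgax was at 13.4, 39.0, 31.2 and 43.2 CPM after PSNL and 69.7, 16.9 and 189 CPM after crush (-1.56, 95% interval -3.02 to -0.11, and -0.49 without crush M1). Spp1 (osteopontin) was at 139, 49.0, 161 and 338 against 138, 141 and 395 CPM (-0.40, interval -1.72 to 0.92), and without crush M1 its difference was 0.29. Fabp5, a fatty acid carrier, was at 392, 121, 530 and 1077 against 785, 419 and 1355 CPM (-0.69, interval -2.10 to 0.71), Lgals3 (galectin-3) at 800, 615, 991 and 1778 against 1741, 705 and 3344 CPM (-0.88, interval -2.01 to 0.24), and Gpnmb at 411, 171, 696 and 1227 against 676, 542 and 1941 CPM (-0.75). In each of Fabp5, Lgals3 and Gpnmb, the males had higher levels than the females of the same injury, and the injuries overlapped. Without crush M1 their differences were -0.19, -0.23 and 0.04. Among females alone, both PSNL samples were below both crush samples for Fabp5 and Gpnmb, but not for Lgals3, Spp1 or Itgax. The injury-induced transcription factor gene Atf3 was at 240, 298, 298 and 310 against 451, 238 and 628 CPM (-0.62, interval -1.24 to 0.00, and -0.27 without crush M1). Of 14 genes of cholesterol handling and export, 12 were below 0 (median -0.44, and 0.07 without crush M1), and Abcg1, which exports cholesterol to HDL, was at 48.3, 48.0, 53.7 and 51.6 against 68.7, 39.7 and 361 CPM (-1.66, and -0.12 without crush M1). The 36 lysosome genes had a median of -0.21, with 33 below 0 and none with an unadjusted p under 0.05, and a median of 0.04 without crush M1.

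Interferon-stimulated genes, which cells switch on after type I interferon, were higher after PSNL on median. All 15 tested were above 0, beside 5373 of all 11187 genes, and the median log2 difference was 0.95. Of the 15, 2 were higher at an unadjusted p under 0.05 (Gbp2 and Isg15), beside 2.33% of all genes; none passed the adjusted threshold. Without crush M1, which leaves only females in the crush group, the median was 0.55 with 2 genes below 0. Isg15, a ubiquitin-like modifier, was at 58.5, 34.3, 17.1 and 8.04 CPM after PSNL and 13.1, 15.6 and 6.76 CPM after crush (1.39, 95% interval 0.02 to 2.76), and Gbp2, a guanylate-binding GTPase, at 13, 8.43, 9.86 and 6.03 against 6.90, 4.64 and 1.65 CPM (1.19, interval 0.09 to 2.30, and 0.64 without crush M1). In Isg15 both PSNL females lay above every other sample. PSNL M2 lay among the crush samples, above the crush male and below the crush females. In the remaining cells the median was 0.90, and Ifit2, which binds RNA and restrains translation, was at 15.9, 11, 5.37 and 1.62 against 1.61, 0 and 1.58 CPM (2.63, unadjusted p = 0.00754). In resident-gated cells 7 of 8 were above 0, with a median of 0.54.

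**Figure D4:**
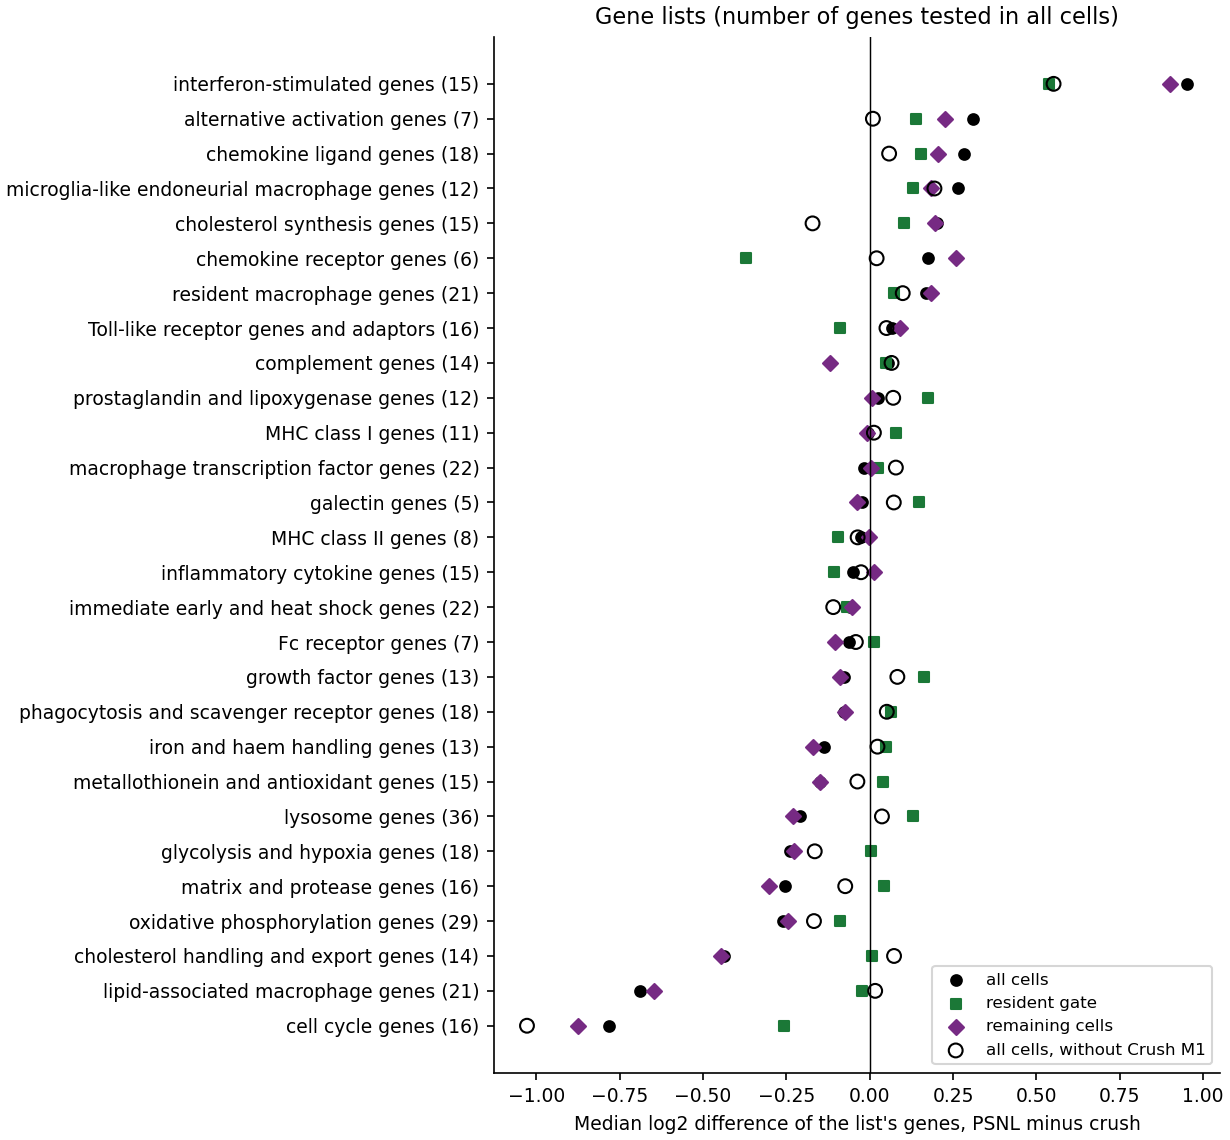
Median log2 difference (PSNL minus crush, x axis) of the tested genes of each list, 1 line per list with the number tested in all cells. Filled symbols are all cells, resident-gated cells and remaining cells, and open circles are all cells without crush M1. Without crush M1 the crush group is female only. The medians of the lipid-associated and lysosome genes then lie near 0 (0.02 and 0.04), and that of the cell cycle genes stays below 0 (-1.03).

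The 21 genes of resident macrophages tested had a median log2 difference of 0.17 (0.10 without crush M1). At an unadjusted p under 0.05, 1 was higher, beside 2.33% of all genes. It was Ltc4s, the synthase of leukotriene C4, at 78.4, 63.8, 78.4 and 60.3 CPM after PSNL and 55.2, 47.7 and 29.1 CPM after crush (0.70, interval 0.20 to 1.19, and 0.44 without crush M1). Mrc1 was at 1372, 1425, 1439 and 1279 against 1064, 1493 and 641 CPM (0.37, interval -0.17 to 0.92), with crush F2 above and crush M1 far below the PSNL samples. Cd163 was at 144, 147, 82.4 and 72.0 against 108, 170 and 40.0 CPM (0.10) and Lyve1 at 21.9, 28.5, 18.3 and 32.5 against 49.2, 16 and 11.3 CPM (0.00); the direction of both changed with several alternatives. Of the 12 microglia-like genes 9 were above 0 (median 0.26), and Tmem119 was at 28.0, 28.2, 15.7 and 20.4 against 6.90, 13.9 and 15.1 CPM (0.92, interval 0.23 to 1.61). The lowest PSNL sample of Tmem119, M1, was above the highest crush sample by a narrow margin. In the remaining cells Cx3cr1, the fractalkine receptor, was at 864, 809, 795 and 748 against 486, 759 and 641 CPM (0.36).

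Among antigen presentation genes, the 8 MHC class II genes had a median log2 difference of -0.03, from -0.07 to 0.21, and the 11 MHC class I genes of 0.00, from -0.18 to 0.49, and none had an unadjusted p under 0.05 in all cells. In 2 of the class I genes the injuries did not overlap, 1 in each direction, beside 2.82% (higher) and 3.12% (lower) of all genes. In the remaining cells 2 class I genes were higher at an unadjusted p under 0.05 (beside 2.78% of all genes). There 1 lower and 2 higher did not overlap, beside 3.25% (lower) and 2.96% (higher) of all genes. H2-Eb1, an MHC class II beta chain, was at 4607, 5847, 4993 and 4608 CPM after PSNL and 4255, 5569 and 4834 CPM after crush, a log2 difference of 0.04 with an interval of -0.26 to 0.33, which bounds any difference at this depth to about that range. The monocyte gene Ly6c2 was low, at 13.4, 3.43, 1.64 and 0 against 3.33, 5.07 and 3.31 CPM (0.20, interval -1.85 to 2.25). Alox15, an enzyme that makes pro-resolving lipid mediators, and the interleukin-2 receptor gene Il2ra were too low to be tested.

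Several secreted and metabolic genes stood out within their lists without passing the adjusted threshold. Among 18 chemokine ligands the median was 0.28, with Ccl8 higher and Cxcl1 lower. Bmp2, a growth factor of the TGF-beta family, was at 15.4, 28.2, 19.9 and 11.1 CPM after PSNL and 8.32, 9.29 and 3.95 CPM after crush (1.5, interval 0.61 to 2.39), and Mmp9 (gelatinase B) at 54.8, 36.6, 54.9 and 44.6 against 32.6, 29.1 and 23.2 CPM (0.77, interval 0.34 to 1.19); neither overlapped. Ctsk, a collagen-degrading lysosomal protease, was at 0.812, 1.58, 1.64 and 17.4 against 22.1, 8.44 and 71.2 CPM (-2.79, and -1.61 without crush M1), with PSNL M2 within the crush range. Among remaining cells, 1 cell held 44 of the 52 Ctsk UMI of PSNL M2, 1 all 20 of crush F2 and 1 cell 62 of the 92 of crush F1. Slc7a11, which imports cystine for glutathione, was at 3.25, 8.96, 6.10 and 8.38 against 24.5, 18.1 and 8.98 CPM (-1.30), the groups touching at PSNL F2 and crush M1. The glycolytic enzyme gene Tpi1 was at 76.8 to 92.8 against 92.4 to 130 CPM (-0.46), and Gpx1, a glutathione peroxidase, at 488 to 635 against 521 to 1010.3 CPM (-0.57). Of 29 oxidative phosphorylation genes 28 were below 0, with a median of -0.26. At an unadjusted p under 0.05, 3 were lower, beside 2.82% of all genes. Without crush M1, 27 were below 0 and the median was -0.17. Among inflammatory genes Tnfaip3, a brake on NF-kB, was at 48.7, 57.5, 48.8 and 49.2 against 74.7, 48.5 and 202 CPM (-1.12, and -0.28 without crush M1). The other lists had medians between -0.25 and 0.31 and at most 2 members of each with an unadjusted p under 0.05.

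Within resident-gated cells edgeR called none of 7076 genes (0%). An unadjusted p under 0.05 was reached by 183 genes, of which 102 were higher after PSNL (1.44%) and 81 lower (1.14%), the smallest adjusted p was 0.99998 and DESeq2 called none (58 genes at an unadjusted p under 0.05). The whole 95% interval lay within a factor of 2 of no difference for 5715 genes (80.8%). The genes higher after PSNL with the smallest p were Pyroxd1, at 14.9, 24.8, 31.7 and 25.3 CPM against 7.84, 8.85 and 5.15 CPM (log2 difference 1.73), mt-Atp8, a subunit of the mitochondrial ATP synthase, at 95, 140, 154 and 133 against 87.2, 59.7 and 55.4 CPM (0.93), Dcn (decorin, a matrix proteoglycan of fibroblasts) at 21.1 to 30.0 against 6.63 to 12.9 CPM (1.38), Il21r (0.78) and Gm15655 (0.83). Summed fibroblast markers over all cells, Dcn among them, were at 13.5 to 33.3 CPM after PSNL and 10.2 to 49.5 CPM after crush, and their part in the Dcn difference was not tested. Among the lower genes, Il18, an inflammasome-released cytokine, was at 39.1, 40.5, 33.6 and 38.0 against 78.4, 53.1 and 63.1 CPM (-0.80, SE 0.214, edgeR adjusted p = 0.99998), with all PSNL samples below all crush samples. Glce, which modifies heparan sulfate, was at 13.8 to 15.7 against 30.9 to 33.2 CPM (-1.08), and Ing4 (-0.90), Rps27rt (-0.73) and Mphosph8 (-0.73) completed the 5 with the smallest p. The gate's own genes are not read as a result; Mrc1, which it did not use, was at 2489, 2041, 3207 and 2823 against 1787, 2424 and 2811 CPM (0.17, interval -0.23 to 0.58).

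Within the remaining cells edgeR called none of 10738 genes (0%). An unadjusted p under 0.05 was reached by 635 genes, 299 of them higher after PSNL (2.78%) and 336 lower (3.13%), and DESeq2 called 9 of 10729 genes (0.0839%). The smallest adjusted p of edgeR was 0.438. Cp (ceruloplasmin), a copper-carrying ferroxidase that lets cells export iron, was at 39.8, 43.5, 40.0 and 23.4 CPM after PSNL and 12.9, 17.5 and 6.78 CPM after crush (log2 difference 1.71, SE 0.336, edgeR adjusted p = 0.633). All PSNL samples were above all crush samples, and DESeq2 called it (adjusted p = 0.00711). Its UMI were spread over 41, 72, 85 and 34 cells after PSNL and 34, 25 and 64 cells after crush, with at most 14 UMI in a cell. Iigp1, an interferon-induced GTPase that acts on the vacuoles of intracellular parasites, was at 7.95, 6.35, 12.9 and 1.21 against 0.321, 0.531 and 0 CPM (5.58), from 15 or fewer cells in each PSNL sample and 1 or none in each crush sample. Hist2h2aa1 (0.97), Gm17106 (1.06) and Gm47371 (1.70) were the other higher genes with the smallest p. Among the lower ones, Rdm1 was at 13.3, 12.4, 13.7 and 14.5 against 24.1, 27.1 and 24.4 CPM (-0.90, SE 0.14), Dhrs9 at 1.06 to 3.23 against 6.37 to 16.6 CPM (-2.54), Cenpe at 1.59 to 3.01 against 6.48 to 15.7 CPM (-2.23) and Slc9a4 at 5.64 to 6.47 against 11.2 to 17.9 CPM (-1.25). The DESeq2 calls were Cp and Iigp1 higher and Cenpe, Cenpf, Dhrs9, Mki67, Rps27rt, Top2a and Ube2c lower.

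Whether the injury difference itself differed between resident-gated and remaining cells was tested on the 14 sums of 7 samples and 2 sets of cells, with the sample as a block. Of 10184 genes, 1 was called (0.00982%), Hspb1, which encodes the small heat shock protein Hsp27 (516 genes had an unadjusted p under 0.05, and DESeq2 called 1). In gated cells Hspb1 was at 3.50, 4.92, 0 and 7.88 CPM after PSNL and 86.4, 58.5 and 7.23 CPM after crush, and in remaining cells at 5.49, 24.1, 2.78 and 28.9 against 23.8, 4.95 and 0.697 CPM. The difference between the 2 injury differences was -4.45 (SE 0.580, 95% interval -5.71 to -3.20, edgeR adjusted p = 0.0324). In gated cells 2 of the 3 crush samples stood high and crush M1 was within the PSNL range.

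Few cells carried these UMI. Among gated crush F1 cells 94 UMI came from 8 cells, 38 of them from 1; in gated crush F2 cells all 28 came from 1 cell, and in gated crush M1 cells 6 came from 2. In remaining cells, 1 cell held 60 of the 69 UMI of PSNL M2 and 1 held 55 of the 69 of PSNL F2. The call was lost without the 5% of cells with the most UMI (log2 difference between the injury differences -2.5, adjusted p = 0.783), and it was kept under 11 of 23 alternatives, over which the adjusted p ran from 2.38e-13 to 1.0. Hspb1 starts at chr5:135887919 on the plus strand. Its promoter is shown as that of the only gene called in this test. Capitals mark the paired heat shock element GAANNTTC, whose letters read the same on both strands. It was found for 3 of 18 genes of the immediate early and heat shock list, in any promoter of the gene. Of all promoters, each counted separately, 6.69% held it.
Hspb1: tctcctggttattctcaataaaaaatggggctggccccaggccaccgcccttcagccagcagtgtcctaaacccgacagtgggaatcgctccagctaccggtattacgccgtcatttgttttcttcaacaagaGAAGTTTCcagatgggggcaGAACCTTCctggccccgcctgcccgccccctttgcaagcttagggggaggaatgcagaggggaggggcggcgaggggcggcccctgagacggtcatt
The window, chr5:135887669-135887918 in GRCm38.p6, held 2 matches.

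**Figure D5:**
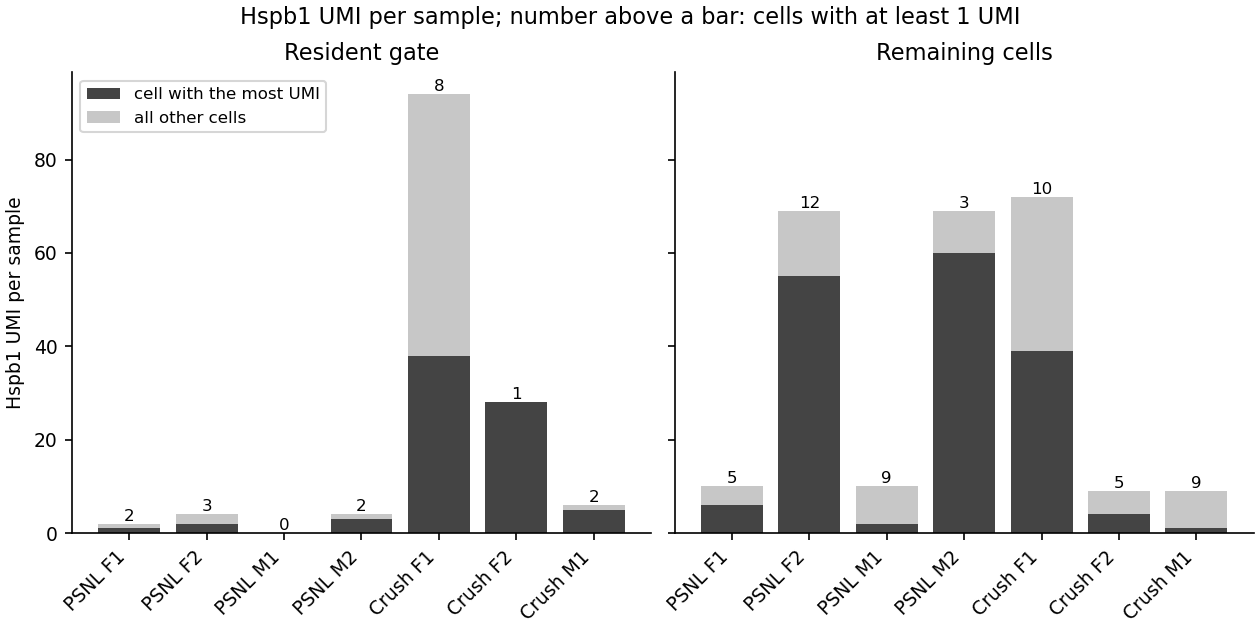
Hspb1 UMI (y axis) in each hashtag sample, in resident-gated and in remaining cells. The dark part of a bar is the single cell with the most UMI, the light part all other cells, and the number above a bar counts the cells with at least 1 UMI. The 28 UMI of gated crush F2 cells came from 1 cell.

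Apoe, the lipid carrier that makes up a large part of macrophage RNA, had an interaction of 0.84 (SE 0.181, 95% interval 0.45 to 1.23, edgeR adjusted p = 0.940). In gated cells it was at 18811, 12258, 16001 and 17573 CPM after PSNL and 11367, 11673 and 13866 CPM after crush, and in remaining cells at 26230, 16758, 29839 and 31813 against 24048, 31563 and 56356 CPM. PSNL F2 was the lowest PSNL sample in both sets of cells, and crush M1 the highest crush sample in both. It was called with the replicate number as a block (log2 0.90, adjusted p = 0.0482) and with sex as a term (0.93, adjusted p = 0.00101), and over all alternatives its adjusted p ran from 2.38e-13 to 1.0 with the same direction each time. Actn1, an actin crosslinker, had an interaction of 2.63 (SE 0.427, edgeR adjusted p = 0.165), at 15.8, 8.6, 20.4 and 37.4 against 9.19, 2.09 and 8.43 CPM in gated cells and 17.6, 13.3, 26.7 and 36.9 against 36.3, 21.4 and 105 CPM in remaining cells. The other genes with the smallest p and a mean of at least 50 CPM, among them Rnase6 (-1.22), Klra2 (-1.51), Igf1 (0.61), Atp6v0d2 (1.59), Ftl1 (0.55) and Hexa (0.58), had adjusted p of 0.940.

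Because the samples separated by sex within each injury, males and females were also compared across both injuries, with injury as a term, a comparison chosen after the data were seen. Of 11187 genes, 42 were called higher in males (0.375%) and 22 lower (0.197%), and 54 of these 64 are autosomal. Without crush M1 only 8 genes were called, and 2 autosomal ones kept their call, Ly6e and Ifi27l2a. The crush samples left in that fit are both female, so its sex difference rests on the 4 PSNL samples. A fit of the 4 PSNL samples alone, which also called both genes, is therefore nearly the same comparison and not a second check. Ly6e, an interferon-inducible surface protein, was at 308, 302, 151 and 136 CPM after PSNL and 166, 160 and 82.2 CPM after crush (male minus female -1.04, SE 0.104, edgeR adjusted p = 0.00405). The females were above the males of their own injury in every case. Ifi27l2a, another interferon-inducible gene, was at 466, 452, 161 and 123 against 439, 358 and 64.0 CPM (-2.06, edgeR adjusted p = 0.006), so that all 4 females were above all 3 males. Among genes higher in males, Atp6v0d2, a subunit of the vacuolar proton pump, was at 95.1, 53.2, 169 and 209 against 146, 132 and 619 CPM (1.71), and Mfge8, a bridge for the uptake of apoptotic cells, at 16.7, 15.0, 50.2 and 155 against 21.4, 45.6 and 626 CPM (3.47); crush M1 was the highest sample of both.

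By list, all 21 lipid-associated genes tested were higher in males (median log2 difference 1.10, 2 called, and 0.68 without crush M1), and all 15 interferon-stimulated genes were lower (median -1.11, 1 called, and -1.09 without crush M1), beside -0.01 over all genes. The 2 lists are the ones whose median also differed most between injuries apart from the cell cycle genes, and 2 of 4 PSNL samples but 1 of 3 crush samples were male. In both lists the injury median (PSNL minus crush, -0.69 and 0.95) had the opposite sign to the sex median (male minus female). Crush M1 enters both medians, as a crush and as a male sample. Without it the injury medians were 0.02 for the lipid-associated and 0.55 for the interferon-stimulated genes. With sex as a term, the injury medians were -0.76 for the lipid-associated, 0.96 for the interferon-stimulated and -0.70 for the cell cycle genes. Crush held a single male sample, which was also the largest, so that sex and that sample cannot be told apart within crush.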

How the data were processed

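For each library the authors deposited a matrix of counts (UMI, not normalized) by gene and barcode, which also holds the hashtag counts. GRCm38, Seurat 5.1.0 and Cell Ranger 6.0.0 come from the submitters' processing notes, whereas the matrix headers give 7.0.0; whether intronic reads were counted is not given in the sources used here. Counting introns or giving out reads shared by gene copies would change levels of single genes.

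Barcodes were assigned by a threshold per hashtag. Barcodes with more than 1 hashtag (5.71% of PSNL and 1.80% of crush barcodes passing the filters) were left out, and pairs of cells with the same hashtag remain, since no doublet caller was run. A marker set, some markers of other cell types and a pair of gene copies are not reported here. An unlabelled hashtag of the crush library (110 UMI) was not used. Counts were summed per hashtag sample over all, resident-gated and remaining cells. After filterByExpr and TMM scaling, edgeR 4.0.16 (R 4.3.3) fitted a quasi-likelihood model with injury as the term, and a gene was called at an adjusted p (Benjamini and Hochberg) under 0.05; DESeq2 1.42.0 was an alternative. SE is the log2 difference divided by the root of F. Shares were compared by exact two-sided permutation. The scripts were tested on simulated data. Counts of replicate samples differed by more than counting error of single UMI (chi-squared over degrees of freedom of 4.36 to 44.1). Because UMI come grouped in cells, this cannot show that the samples came from different mice. Each hashtag was taken as a sample.

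Named were Xist and Ddx3y, genes the paper names for mouse cells, the 10 largest changes each way among genes past the threshold or else the 5 with the smallest p, up to 4 genes of each list, and for the test between sets of cells the 10 with the smallest adjusted p and at least 50 CPM. Others (DESeq2 calls, Hspb1, parents of retrocopies, Gpnmb, Olr1, and genes in the comparison of sexes) were chosen after their values were seen, as were those of the rule that are printed. The members and lists were chosen with earlier results of these data known. Replicate numbers, which also share sex, were checked for pairing: the correlation of same-numbered samples in how they deviate from their groups was 0.102 for F1, 0.194 for F2 and 0.136 for M1, all above 0.1, so a fit with the number as a block was also made; some differently numbered samples correlated more (PSNL M2 with crush M1 at 0.451 and PSNL F2 with crush F1 at 0.284). Sequences are from RefSeq (GRCm38.p6) and GENCODE M21. The alternatives comprised left-out samples, sex as a term, other normalization, filters, hashtag assignment (HTODemux of Seurat 5.3.0), thinning and gates.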

Additional observations from a re-analysis of the deposited data

Results flagged for a closer look

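Atf3 was at 240 CPM in PSNL F1 over all cells, apart from 298, 298 and 310 CPM in the other PSNL samples, a gap of 0.835 of the range, just past Dixon's critical value. This is 1 of 51 sets of PSNL values examined for a sample that stood apart, and chance flags about 1 in 20. The injury difference in Hspb1 differed between resident-gated and remaining cells by -4.45 on the log2 scale in the test of that difference, with most UMI in single cells; the call was lost without the 5% of cells with the most UMI.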

How the results depend on the processing

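For counts of called genes, leaving out 1 sample gave 0 to 1 in all cells (Olr1, an oxidized LDL receptor gene, without crush F2, log2 -2.65, edgeR adjusted p = 0.0459), 0 to 1 in resident-gated cells (Hspb1 without crush M1, log2 -4.11, edgeR adjusted p = 0.0166), 0 in remaining cells and 0 to 3 for the test between sets of cells (3 without crush F1: Actn1, Apoe and Hspb1). DESeq2 called 9 in all and 9 in remaining cells. With no filter on low counts, edgeR called 28 resident-gated, 3 remaining and 39 between sets, among them mt-Atp8 in resident-gated cells (adjusted p = 0.0311), Dhrs9 in remaining cells (0.0391), and Rnase6 (0.0185), Klra2 (0.0269), Atp6v0d2 (9.22e-05), Ftl1 (0.0133) and Apoe (2.38e-13) between sets. In remaining cells 1 gene (Top2a) was called with females only and 1 with sex as a term without crush M1, which was chosen after seeing the data. Between sets, 2 were called with sex as a term, 2 after thinning to 2000 UMI (Apoe and Ctsd) and 2 with the gate at 5 UMI, and 0 with females only, without the 5% of cells with the most UMI, without cells with markers of another cell type, with the same number of cells per sample, and with the gate at 2 UMI before or after thinning (Hspb1 0.60 in the last). With the replicate number as a block, edgeR called 0 in all, resident-gated and remaining cells (959, 154 and 1248 at an unadjusted p under 0.05) and 1 between sets, Apoe rather than Hspb1. Scaling by library totals, the median log2 difference of all genes was 0.07 in all cells, against -0.01, and 0 were called. The share of resident-gated cells differed by 0.29 points under HTODemux, 1.59 with the gate at 2 UMI, 1.38 at 5 UMI and 0.46 after thinning, and by -5.40 to 3.91 with 1 sample left out. For the Cd163, Lyve1 and Cbr2 set it was -0.47 after thinning to 1000 UMI and -0.15 at 3 or more UMI, and for Cd209a and Flt3 -0.26 and -0.27. Some genes changed sign: Gpnmb (-1.31 to 0.039), Spp1 (-0.97 to 0.29), H2-Eb1 (-0.053 to 0.14), Ly6c2 (-1.08 to 0.61), Cd163 (-0.32 to 0.61) and Lyve1 (-0.43 to 0.95) with 1 sample left out; Ly6c2 with sex as a term (-0.041) and equal cell numbers (-0.57); Cd163 without cells of other types (-0.017); Mrc1 in resident-gated cells with the gate at 2 UMI after thinning (-0.032); and Lyve1 with females only (-0.42), DESeq2 (-0.0066), no filter (-0.00798), HTODemux (-0.16), without cells of other types (-0.44), looser cell filters (-0.059), thinning (-0.41) and sex as a term without crush M1 (-0.42). The causes were not tested.

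The resident-gated sums held 57 to 121 cells per sample, and the median 95% interval there was ± 0.54 on the log2 scale, against ± 0.42 in all cells, ± 0.43 in remaining cells and ± 0.72 between sets. With 4 against 3 samples and 1 library per injury, a difference between libraries would look like one between injuries.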
